A study of Mus musculus with 6 samples.

Results

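Complement is a cascade of blood and tissue proteins that marks microbes and foreign surfaces, and ticks counter it while they feed. Transcripts of 9 complement genes were followed in ear skin at the tick bite site of mice with an intact adiponectin gene (WT) and of mice without it (KO). The genes were C1qa, C1qb, C1qc, C3, C4b, Cfb, Cfp, C3ar1 and Serping1. They were taken by gene symbol from a table of 15667 genes, and all 9 were found. Each passed the filter on low values, a mean of at least 1 CPM (read counts scaled to a fixed library total), which kept 14306 genes for testing.

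RNA was sequenced from ear skin of 3 WT (Adipo+/+) and 3 KO (Adipo-/-) mice, numbered here by replicate. The KO mice were homozygous for the Adipoq tm1Chan null allele on a mixed B6 and 129 background, lack the gene in every tissue, and were littermates of the WT mice. All were females of 7 to 8 weeks on which 10 Ixodes scapularis nymphs had been placed, and a punch of bitten ear skin was taken after 48 h. Both groups had been bitten, and unbitten skin was not analysed here. Adipoq was at 30.5, 63.7 and 49.6 CPM in WT mice 1, 2 and 3, against 0, 0.560 and 0 CPM in KO mice 1, 2 and 3, so all 6 labels matched the targeted gene. Implied depth was 3403708 to 6591514 reads per library. Hair follicle markers, 10 in all, summed to 10.9, 14.85 and 21780 CPM in WT mice 1, 2 and 3. In KO mice 1, 2 and 3 they summed to 1761, 8749 and 900.4 CPM. WT mice 1 and 2 thus lay below all KO libraries, and WT mouse 3 lay above them. WT mouse 3 was also high in 6 red blood cell markers, which summed to 7530 CPM there and to between 94.9 and 1675 CPM elsewhere. Skin markers were present throughout, with the sum of 10 keratinocyte markers between 28100 and 46140 CPM.

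Complement is started in several ways. In the classical pathway the recognition molecule C1q, built of chains A, B and C, binds antibody or a surface and activates the proteases C1r and C1s, which cut C4 and C2. The lectin pathway reads sugars on surfaces and joins this route at C4. In the alternative pathway factor B (Cfb) joins deposited C3 fragments and is cut by factor D. Each route forms an enzyme that cuts C3, the central protein of the cascade. Its small fragment C3a is sensed by C3ar1, a receptor of myeloid and other cells. Properdin (Cfp) steadies the alternative enzyme, and C1 inhibitor (Serping1) blocks C1r and C1s. Much of the complement in plasma is made by the liver, while macrophages are a main source of C1q and stromal and epithelial cells also make C3, C4 and factor B. Adiponectin itself carries a globular domain of the C1q type.

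None of the 9 complement transcripts differed between KO and WT skin beyond the spread between libraries. The WT and KO values overlapped for every gene, and the groups were separate in 7.84% of all tested genes (4.89% lower and 2.95% higher in KO). In limma 0 of 9 reached an unadjusted p below 0.05, a level passed by 2.88% of all tested genes (1.82% lower and 1.06% higher in KO), and 0 of 9 passed the Benjamini-Hochberg adjustment, which 0.0140% of all tested genes passed, namely Adipoq and the predicted gene Gm12191. With shares this small among all tested genes, 0 of 9 says little about these genes as a set. The median log2 fold change of the 9, KO minus WT on the log2(CPM + 0.5) scale, was -0.16. That of all tested genes was -0.032. All 9 values lay below 0, from -0.36 for Serping1 to -0.01 for C3, as did those of 56.7% of all tested genes. That shared sign depended on which library was left out. It held for 4 of 9 without KO mouse 1, 6 without WT mouse 2, 7 without WT mouse 1 and 8 without KO mouse 3. All 9 lay below 0 without WT mouse 3 and without KO mouse 2. The sign also depended on the scaling, and 7 of 9 lay below 0 after quantile normalization. The genes that turned there were C3 (0.03) and C3ar1 (0.019), both near 0.

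Next, levels were compared between the genes per length, as CPM per kilobase of exon, where the length is the union of the exons of all GENCODE transcripts of a gene. C3 had the highest mean over the 6 libraries, 57.8 ± 20.5 CPM per kilobase (SD, n = 6). Serping1 followed at 53.8 ± 17.0, C1qb at 51.4 ± 16.7 and C1qa at 49.5 ± 13.2 CPM per kilobase, and the ranges of these 4 overlapped. C1qc was at 30.2 ± 8.24 and C4b at 29.0 ± 9.19 CPM per kilobase. The place of C1qc depends on its exon union of 1931 bases, against 1040 for C1qa. Per length C1qa was above C1qc in 6 of 6 libraries, and in CPM C1qc was above C1qa in 6 of 6. The lowest were Cfp at 16.6 ± 6.21, Cfb at 15.9 ± 4.10 and C3ar1 at 7.07 ± 2.07 CPM per kilobase. Cfb and C3ar1 were the only neighbours in this order whose ranges did not overlap.

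**Figure D1:**
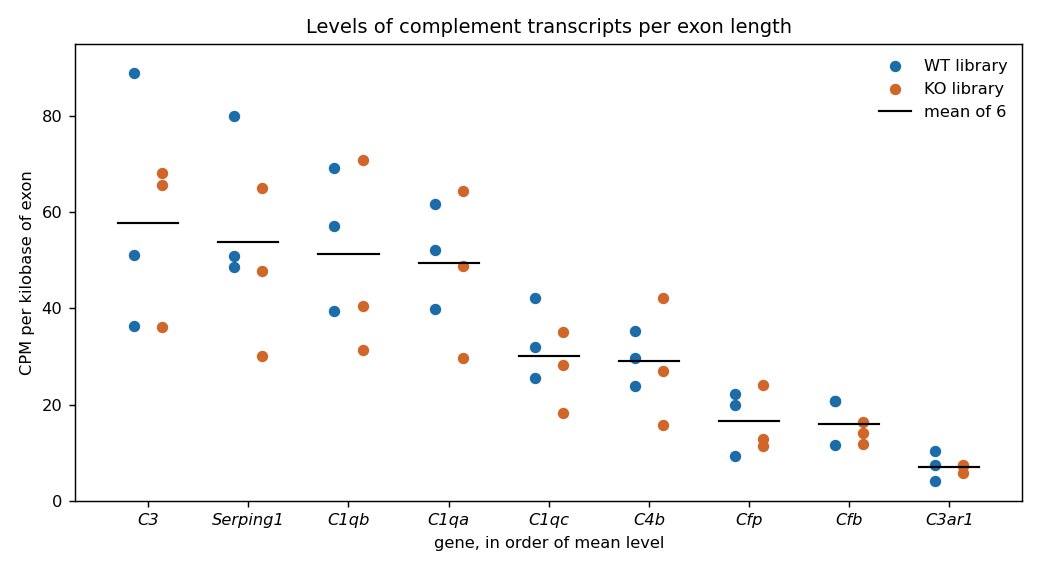
Levels of the 9 complement transcripts as CPM per kilobase of exon (vertical axis, linear from 0), with a point for each of the 6 libraries and a line at their mean. C3, Serping1, C1qb and C1qa formed the upper level, near 49.5 to 57.8 CPM per kilobase, and C3ar1 the lowest at 7.07, with overlapping WT and KO points for every gene.

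The recognition subunits were examined first. C1qa, C1qb and C1qc lie side by side on the minus strand of chromosome 4 (GRCm38), in the order C1qb (136880126 to 136886200), C1qc (136889802 to 136892914) and C1qa (136895916 to 136898844). They are protein-coding genes of 3 exons each, and the whole cluster spans 18719 bases, with 3601 bases between C1qb and C1qc and 3001 between C1qc and C1qa. Upstream sequence is shown for C1qb, whose start in the deposited table is also that of RefSeq. It covers the 250 bases before the RefSeq gene start, 5′ to 3′ on the gene's strand. Capitals mark GAGGAA, a core of sites for PU.1 and other ETS factors, and TGCTGA, a core of sites for MAF factors, either of which was searched on both strands.
C1qb promoter, chr4:136886201-136886450 (GRCm38.p6, minus strand): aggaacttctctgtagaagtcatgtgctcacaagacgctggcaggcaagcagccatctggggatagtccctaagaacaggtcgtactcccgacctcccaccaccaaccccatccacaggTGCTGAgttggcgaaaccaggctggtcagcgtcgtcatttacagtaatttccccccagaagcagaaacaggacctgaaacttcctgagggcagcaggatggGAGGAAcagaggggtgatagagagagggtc
GAGGAA was found once, 25 to 30 bases before the start, and TGCTGA once, 126 to 131 bases before it. These are matches of letters only. Of 32851 RefSeq promoter windows of the same length, 23.3% held GAGGAA and 16.1% held TGCTGA.

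C1qa, which encodes chain A, was at 54.2, 64.3 and 41.5 CPM in WT mice 1, 2 and 3, against 30.8, 67.0 and 50.8 CPM in KO mice 1, 2 and 3 (173 to 316 implied reads per library). The lowest and the highest library were both KO libraries. WT averaged 53.4 ± 11.4 CPM and KO 49.5 ± 18.1 CPM (SD, n = 3 per group), and the log2 fold change was -0.15 (SE 0.28). Its 95% interval, -0.81 to 0.51, corresponded to 0.570-fold to 1.42-fold. Without KO mouse 1 the log2 fold change was 0.15.

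C1qb, which encodes chain B, was at 62.2, 75.3 and 42.9 CPM in the 3 WT mice, against 34.1, 77.1 and 44.1 CPM in the 3 KO mice. Mouse 2 of each group was high, KO mouse 3 lay close to WT mouse 3, and KO mouse 1 was lowest. The log2 fold change was -0.26 (SE 0.31, 95% interval -0.99 to 0.47), which moved to -0.01 when KO mouse 1 was left out and to -0.59 when KO mouse 2 was. C1qc, which encodes chain C, was at 61.7, 81.4 and 49.3 CPM in WT, against 35.2, 67.8 and 54.4 CPM in KO. WT mouse 2 was highest and KO mouse 1 lowest. Its log2 fold change was -0.31 (SE 0.27, 95% interval -0.92 to 0.31). It was -0.05 when KO mouse 1, -0.12 when WT mouse 2 and -0.52 when KO mouse 2 was left out.

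The 3 chains are assembled into C1q in equal numbers, so their transcripts were also set against each other within each library. Of the summed C1q level per kilobase, C1qa made up 35.7% to 41.6%, C1qb 34.5% to 41.6% and C1qc 20.6% to 24.3%. In CPM, with no length, the shares were 29.1% to 34.1%, 29.5% to 36.4% and 32.0% to 36.9%, so the low share of C1qc rests on the length used. On either scale the shares were narrow beside the change in the sum of the chains, which ran from 100.1 CPM in KO mouse 1 to 220.9 CPM in WT mouse 2. Pearson's r over the 6 libraries, on the log2(CPM + 0.5) scale, was 0.96 between C1qa and C1qc, 0.94 between C1qa and C1qb and 0.94 between C1qb and C1qc. It is a description, since the points share library depth and skin composition.

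**Figure D2:**
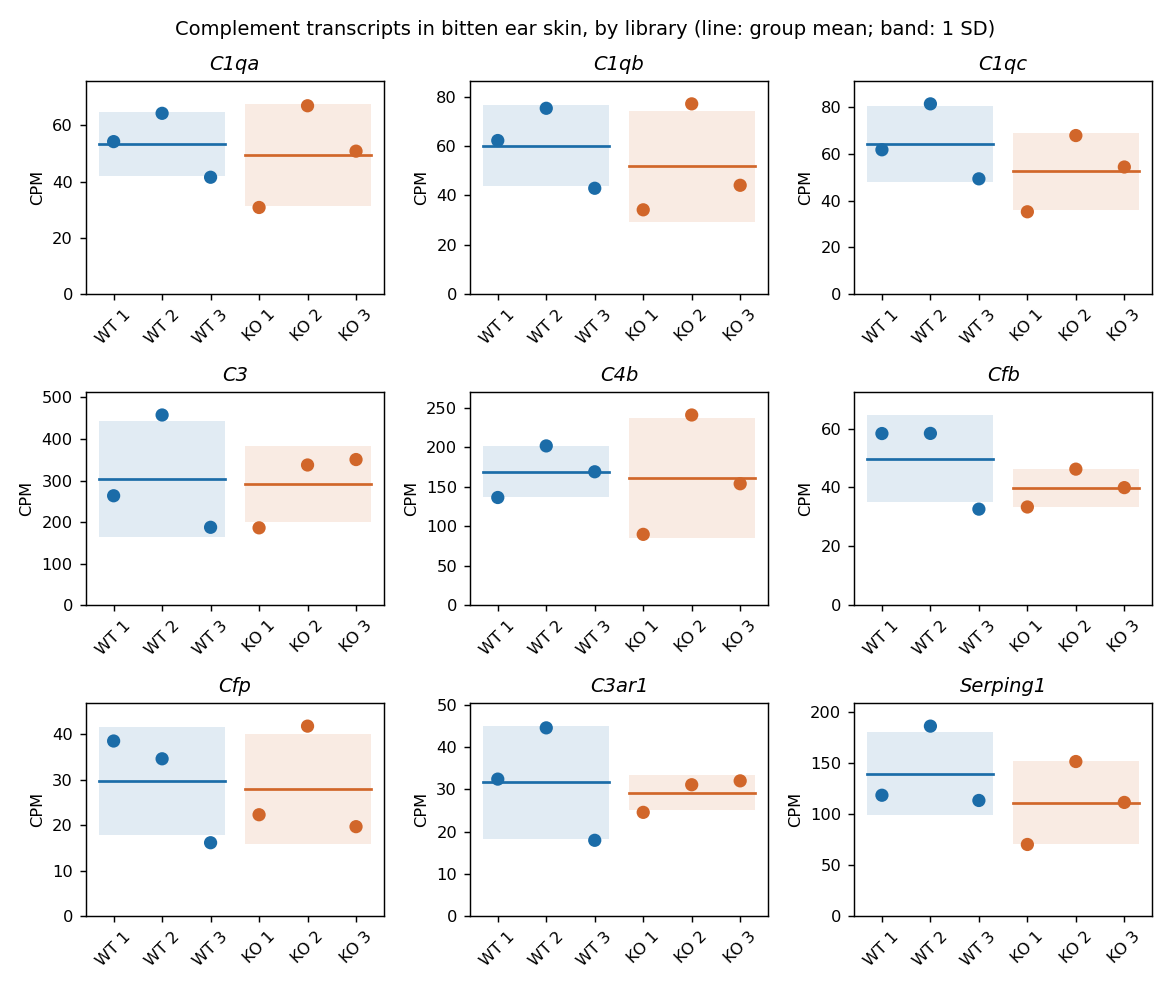
CPM (vertical axes, linear from 0) of each of the 9 complement genes in the 3 WT and 3 KO libraries, with the group mean as a line and 1 SD as a band. In every panel the WT and KO points overlap, and the highest point belongs to WT mouse 2 or KO mouse 2 (for C1qa, 64.3 and 67.0 CPM).

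C3, the protein on which all routes meet, was the most abundant of the 9 by CPM (chromosome 17, 57203967 to 57228136, minus strand, 41 exons). Its level was 263, 458 and 187 CPM in the 3 WT mice, against 186, 337 and 351 CPM in the 3 KO mice. The lowest library of each group was nearly equal, and WT mouse 2 was highest. WT averaged 303 ± 139 CPM and KO 291 ± 91.3 CPM (SD, n = 3 per group), and the log2 fold change was -0.01 (SE 0.35). The 95% interval was -0.82 to 0.80, or 0.565-fold to 1.74-fold, so changes of either sign within it were compatible with these data. Leaving out WT mouse 2 gave 0.33 and leaving out KO mouse 1 gave 0.28. C3 rests on 1088 to 2250 implied reads per library.

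The sequence before the C3 start is shown as that of the central component, with TGCTGA in capitals as above.
C3 promoter, chr17:57228137-57228386 (GRCm38.p6, minus strand): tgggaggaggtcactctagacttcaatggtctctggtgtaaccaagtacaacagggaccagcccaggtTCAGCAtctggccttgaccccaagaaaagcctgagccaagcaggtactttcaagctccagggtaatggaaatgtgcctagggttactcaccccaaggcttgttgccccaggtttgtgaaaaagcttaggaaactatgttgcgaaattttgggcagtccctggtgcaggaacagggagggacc
TGCTGA was present once, on the opposite strand 177 to 182 bases before the start, and GAGGAA was not found. The pattern TTNNGNAA, a loose form of the site bound by C/EBP factors, was found 4 times on the 2 strands of this window, at 3 places within 38 to 70 bases before the start, 1 of which matched on both strands. At least 1 match was present in 36.8% of the promoter windows. Its matches do not overlap TGCTGA here and are left in lower case.

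C4b and Cfb provide the fragments that form the enzymes that cut C3, and both lie on chromosome 17. C4b (34728381 to 34743897, minus strand) encodes complement C4. It was at 136, 202 and 169 CPM in the 3 WT mice, against 89.6, 241 and 154 CPM in the 3 KO mice. The KO libraries enclosed the whole WT range, and their SD was 75.8 CPM against 32.6 CPM in WT. The difference on the log2 scale was -0.16 (SE 0.33, 95% interval -0.92 to 0.60), which moved to 0.20 when KO mouse 1 was left out and to -0.50 when KO mouse 2 was. C4b has a close relative, C4a, 65194 bases away. Of 50-base windows of the longest C4b transcript, 35.2% occur unchanged in C4a transcripts, so reads could be divided between them. C4a was at 0.262 to 1.09 CPM in the 6 libraries and was not tested.

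Cfb (34856374 to 34862514, minus strand) encodes factor B, the alternative pathway counterpart of C2. It was at 58.3, 58.4 and 32.6 CPM in the 3 WT mice, against 33.4, 46.2 and 39.96 CPM in the 3 KO mice. WT mice 1 and 2 lay above all KO libraries, and WT mouse 3 lay below all of them. KO differed from WT by a log2 fold change of -0.28 (SE 0.24, 95% interval -0.85 to 0.28). Cfb was the only one of the 9 to reach an unadjusted p below 0.05 under any alternative. Without WT mouse 3 its log2 fold change was -0.56 in limma with an adjusted p of 0.639. Leaving out WT mouse 1 or WT mouse 2 gave -0.14. On their shared minus strand C2 lies upstream and ends 87 bases before Cfb begins. GENCODE M21 places a further gene, Gm20547 (34856412 to 34882042, minus strand), over both, so some reads of the pair may be interchanged. C2 was at 7.99, 9.15 and 6.26 CPM in WT, against 5.92, 14.6 and 9.11 CPM in KO.

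Regulators were then compared. Serping1 (chromosome 2, 84765360 to 84775429, minus strand) had the largest absolute log2 fold change of the 9. Its level was 118, 186 and 113 CPM in the 3 WT mice, against 70.2, 151 and 111 CPM in the 3 KO mice. KO mouse 1 was low and mouse 2 of each group was high, while KO mouse 3 was close to WT mice 1 and 3. The log2 fold change was -0.36 (SE 0.29, 95% interval -1.04 to 0.32, adjusted p = 0.998 in limma), or 0.781-fold (0.487-fold to 1.25-fold). It was -0.06 without KO mouse 1, -0.13 without WT mouse 2 and -0.61 without KO mouse 2.

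Cfp, the gene of properdin on the X chromosome (20925454 to 20931555, minus strand), was at 38.5, 34.6 and 16.2 CPM in the 3 WT mice, against 22.3, 41.8 and 19.7 CPM in the 3 KO mice. WT mouse 1 and KO mouse 2 were high, and mouse 3 of each group was lowest in its group. The genotypes differed by -0.08 on the log2 scale (SE 0.38, 95% interval -0.96 to 0.81), the widest interval among the 9. Cfp rested on 67 to 170 implied reads per library, with the fewest in KO mouse 3. Its sign turned when WT mouse 1 or 2, or KO mouse 1 or 3, was left out.

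The receptor C3ar1 (chromosome 6, 122847140 to 122856157, minus strand) was at 32.4, 44.6 and 18.0 CPM in the 3 WT mice, against 24.6, 31.1 and 32.0 CPM in the 3 KO mice. The WT libraries held both extremes, and all KO values lay between them. The difference on the log2 scale was -0.03 (SE 0.31, 95% interval -0.74 to 0.68). It was 0.26 without WT mouse 2 and -0.38 without WT mouse 3. The ratio of C3ar1 to C3 was 0.0959 to 0.123 in the WT libraries and 0.0914 to 0.132 in the KO libraries.

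Although the 9 genes did not separate the genotypes, they shared their extreme libraries. This pattern was noticed after the values had been seen, and it is given without a test. The highest library was WT mouse 2 for 5 genes and KO mouse 2 for 4 genes. For Cfb this was a near tie, with 58.38 CPM in WT mouse 2 and 58.33 CPM in WT mouse 1. Among all tested genes 35.13% were highest in either of these libraries. KO mouse 1 was lowest for 6 genes and WT mouse 3 for the other 3, namely Cfb, Cfp and C3ar1, and 19.97% of all tested genes were lowest in KO mouse 1. For C3 the lowest place was a near tie, with 186.1 CPM in KO mouse 1 and 187.45 CPM in WT mouse 3. Averaged over the 9 genes, the deviation from each gene's mean over the 6 libraries (log2 scale) was 0.13, 0.49 and -0.35 for WT mice 1, 2 and 3, and -0.56, 0.36 and -0.06 for their KO counterparts. Over all tested genes the median deviation lay between -0.029 and 0.052 in the 6 libraries. The order of the other libraries was not shared, and single genes deviated from -0.21 to 0.50 in WT mouse 1 and from -0.45 to 0.32 in KO mouse 3. Among pairs of the 9 genes Pearson's r ran from 0.34 for C4b and C3ar1 to 0.98 for C1qc and Serping1.

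Markers of cell types moved along with this pattern to different degrees. The 20 macrophage markers, all tested, deviated on average by 0.14, 0.40 and -0.38 in the WT mice and by -0.32, 0.34 and -0.19 in the KO mice. Of these markers 14 were highest in WT mouse 2 or KO mouse 2. Their summed level was 2131 to 2743 CPM in WT and 2075 to 3017 CPM in KO, and none was at 0 in any library. Apoe, the most abundant of them, made up 981 to 1748 CPM of this sum and was highest in WT mouse 3, so the sum was not lowest there. The neutrophil markers followed another order. Their mean deviation was 1.81 in WT mouse 1 and -1.80 in WT mouse 3, and 1 of 9 tested was highest in mouse 2 of either group. The summed level of 10 neutrophil markers was 73.5 to 678 CPM in WT and 140 to 247 CPM in KO. Fibroblast markers deviated by -0.16, 0.19 and -0.05 in the WT mice and by -0.30, 0.12 and 0.21 in the KO mice. Of the 12 tested, 7 were highest in mouse 2 of either group. Mast cell markers deviated by -0.19, 0.37 and 0.15 in the WT mice and by -0.54, 0.25 and -0.03 in the KO mice. Here 5 of 7 tested were highest in mouse 2 of either group, so the pattern was not particular to macrophage markers. Adipocyte markers were lowest in KO mouse 1, at -0.98, as were skeletal muscle markers, at -0.71, all 10 of which were lowest in that library. The part of these cell types in the complement values was not tested. In bulk skin, fewer cells of a type and less RNA per cell cannot be told apart.

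**Figure D3:**
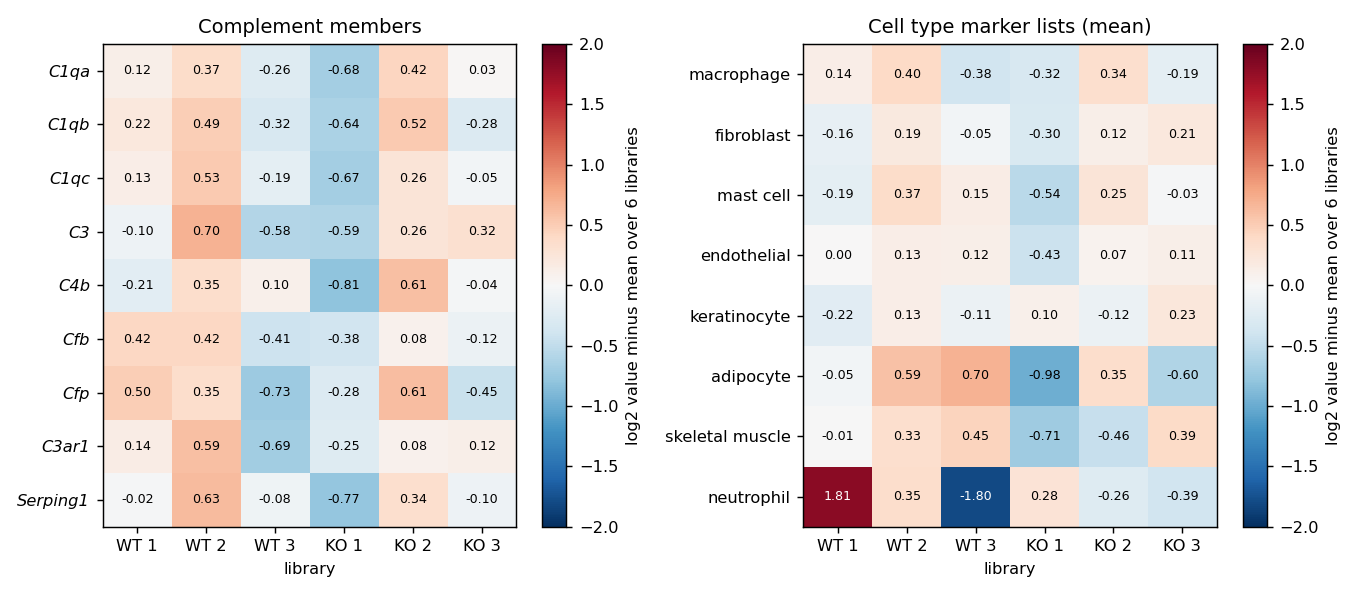
Deviation of log2(CPM + 0.5) from the mean over the 6 libraries (colour and printed value) for each complement gene on the left and for the mean of 8 marker lists on the right. The complement rows are red in WT and KO mice 2 and mostly blue in WT mouse 3 and KO mouse 1 (mean -0.35 and -0.56). The macrophage row resembles this pattern and the neutrophil row does not. The mast cell and fibroblast rows share it in part, above 0 in mice 2 and lowest in KO mouse 1.

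The genes whose pattern over the 6 libraries was most like the mean of C1qa, C1qb and C1qc were listed by Pearson's r. The 8 closest outside the members were Itm2c, Clec10a, C1ra, Galnt16, Neu1, Unc93b1, F13a1 and P2ry6, with r from 0.985 to 0.997. C1ra, a protease that binds C1q, was at 49.4, 60.4 and 41.6 CPM in WT, against 30.1, 57.4 and 42.9 CPM in KO. Clec10a, a lectin of macrophages and dendritic cells, was at 22.7, 29.2 and 13.02 CPM in WT, against 7.89, 31.2 and 15.0 CPM in KO. The 8 closest to C3 were Slc8a1, Acyp1, Gpx7, Ciita, Thbs2, Prmt6, Rnf115 and Morf4l1-ps1, with r from 0.982 to 0.999. No gene stood in both lists. With 6 points and 14306 genes, high values of r arise easily, so these lists are descriptions.

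Finally, the rest of the complement system was examined with a list of 50 further genes, of which 30 were in the table and 24 were tested. Of the 24, 0 were higher and 0 were lower in KO skin at an unadjusted p below 0.05 in limma, and 0 passed after adjustment. Among all tested genes 2.88% reached that unadjusted level and 0.0140% passed after adjustment, so 0 of 24 says little about the list. The median log2 fold change of the 24 was -0.06, with 15 genes below 0 and 9 above. Of all tested genes 56.7% lay below 0. The groups overlapped for all 24 and were separate in 7.84% of all tested genes. The list bears on the same 6 libraries as the 9 members and was chosen with earlier results of these data known.

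Of the classical pathway proteases, C1s1, which cuts C4 and C2, was at 53.0, 93.4 and 62.1 CPM in WT, against 39.3, 68.6 and 75.2 CPM in KO (log2 fold change -0.20, SE 0.29). C1ra, its partner in the C1 complex, had a log2 fold change of -0.24 (SE 0.24), and C2 one of 0.25 (SE 0.33). In the lectin pathway 2 of 8 genes were tested. Masp1, a protease of that pathway, was at 21.8, 23.2 and 19.9 CPM in WT, against 15.3, 14.01 and 20.9 CPM in KO. Its log2 fold change was -0.38 (SE 0.19, adjusted p = 0.998 in limma), and KO mouse 3 lay within the WT range. Without KO mouse 3 it was -0.55 (adjusted p = 1 in limma), with an unadjusted p below 0.05. Fcna, a ficolin that recognises sugars, was at 1.94 to 5.09 CPM in WT and 1.76 to 6.73 CPM in KO.

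Cfd, which encodes factor D or adipsin and is made mainly by fat cells, had the largest absolute log2 fold change of the list. It was at 88.1, 176 and 167 CPM in the 3 WT mice, against 49.9, 178 and 65.2 CPM in the 3 KO mice. KO mice 1 and 3 lay below all WT libraries, and KO mouse 2 lay above them. The log2 fold change was -0.72 (SE 0.47, adjusted p = 0.998 in limma), and it was -1.26 without KO mouse 2 (adjusted p = 0.931 in limma), where the unadjusted p was below 0.05. The summed level of 10 adipocyte markers, which did not include Cfd, was 573, 802 and 870.5 CPM in the 3 WT mice, against 309, 757 and 404 CPM in the 3 KO mice. These markers were thus also low in KO mice 1 and 3, and 5 of 10 were lower in KO at an unadjusted p below 0.05, against 1.82% of all tested genes. Their part in the values of Cfd was not tested.

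Of 7 genes of the terminal pathway, whose proteins form the membrane attack complex, 2 were in the table, and both were low. C6 was at 0 to 1.63 CPM in WT and 0.152 to 2.24 CPM in KO, where 3 reads correspond to between 0.455 and 0.881 CPM. C7 was at 0.242 to 0.814 CPM in WT and 0.294 to 1.96 CPM in KO and was not tested. Among soluble regulators, Clu, which encodes clusterin, was at 118, 175 and 189 CPM in WT, against 127, 149 and 170.4 CPM in KO (log2 fold change -0.09, SE 0.19).

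Of the regulators on cell membranes 5 were tested, with log2 fold changes between -0.09 and 0.09. The widest of their 95% intervals spanned 2.97 on the log2 scale, so these estimates were not all precise. Cr1l, which encodes Crry, a rodent inhibitor of the C3-cutting enzymes, was at 27.1, 29.3 and 23.9 CPM in WT, against 27.5, 26.6 and 26.4 CPM in KO. Its log2 fold change was 0.01 (SE 0.14), with a 95% interval of -0.31 to 0.33. Cd55, which speeds the decay of those enzymes, was at 25.2, 48.6 and 29.7 CPM in WT, against 25.9, 35.3 and 36.1 CPM in KO (-0.04, SE 0.26). Cd59a, which encodes a blocker of the membrane attack complex, had a log2 fold change of -0.09 (SE 0.19).

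Of 11 further receptors and binding partners, 9 were tested. Lrp1, a large endocytic receptor with many ligands, had a log2 fold change of -0.01 (SE 0.14), and Calr, a chaperone that C1q binds on dying cells, one of -0.08 (SE 0.13). C5ar1, the receptor for the C5 fragment that attracts neutrophils, was at 31.2, 25.8 and 13.02 CPM in WT, against 14.4, 32.2 and 11.2 CPM in KO (-0.33, SE 0.44). The SD of this receptor was 9.35 CPM among WT and 11.3 CPM among KO libraries. The integrin subunits of complement receptor 3, Itgam and Itgb2, had log2 fold changes of -0.12 (SE 0.34) and 0.02 (SE 0.39).

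**Figure D4:**
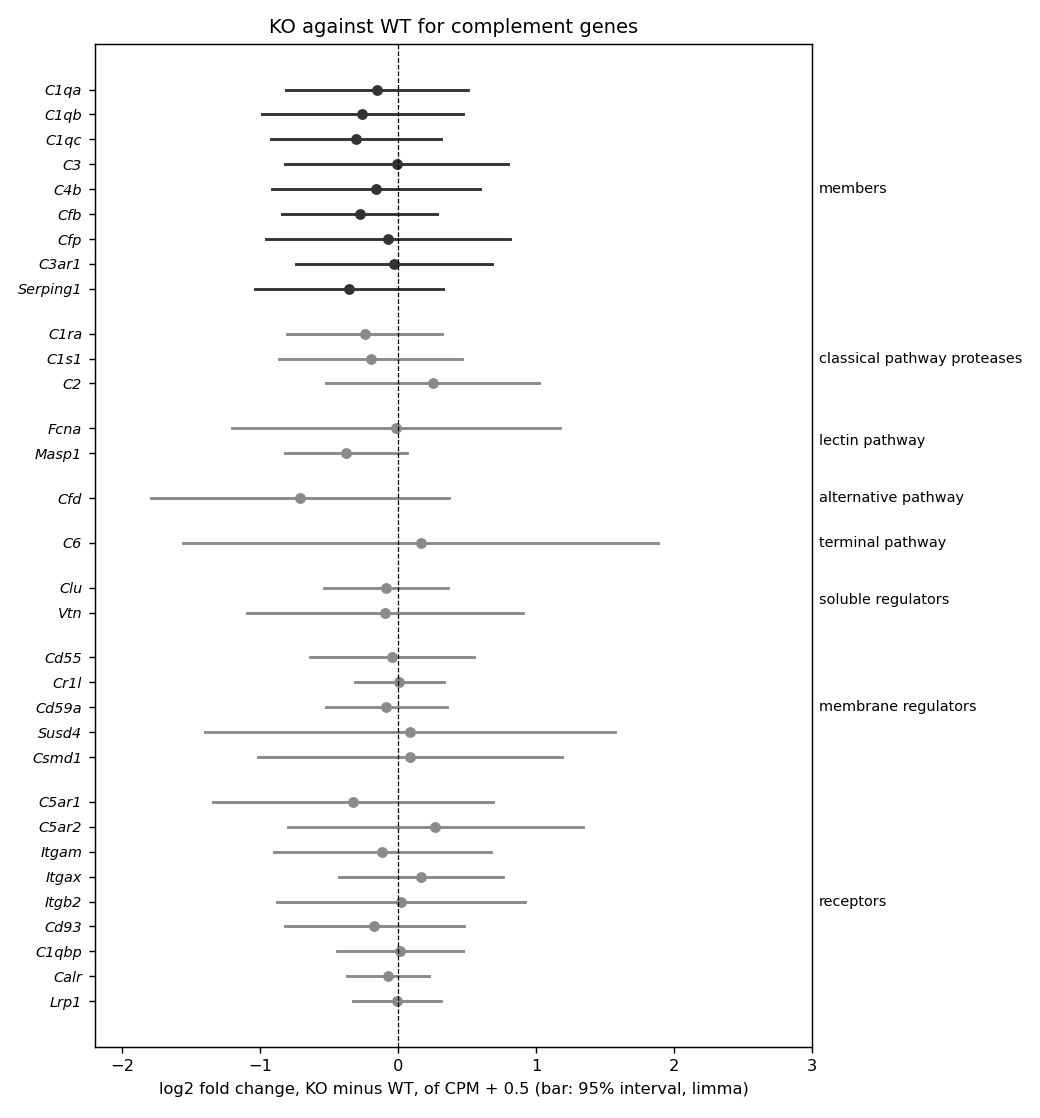
Log2 fold change, KO minus WT, of CPM + 0.5 (horizontal axis) with its 95% interval from limma for the 9 members (dark) and for tested genes of the wider complement list (grey), grouped by role. Every interval shown crosses 0, and those of the members lie between -1.04 and 0.81.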

How the data were processed

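Values were the deposited CPM of 6 libraries (3 WT, 3 KO). The authors trimmed the reads, aligned them to mm10 with STAR 2.7.3a, quantified Ensembl transcripts with the Partek E/M algorithm, which can divide a read among genes, and scaled each gene by the library total plus an offset of 0.0001, removed here. Use of strand and the model for skin are not given in the sources used here. Depth was worked out from the step between low values (91.85% to 92.63% of values under 20 reads lay within 0.1 of a whole read) and covers counting error only.

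KO was compared with WT by limma 3.58.1 (R 4.3.3; eBayes with trend, two-sided, no covariate) on log2(CPM + 0.5) after removal of genes averaging below 1 CPM, with Benjamini-Hochberg adjustment over the 14306 left. Such fold changes understate the change of low genes. The smallest p of an exact permutation test on 3 against 3 mice is 0.1. No libraries were duplicates. The 18 alternatives varied pseudocount, filter, scaling, variance model, replicate block and left-out library. The step was tested on simulated data. Those had the same spread beyond counting error for every gene and no shifts shared between genes, unlike the complement values here.

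Gene coordinates follow the deposited table (GRCm38, ends lowered by 1). Exon lengths came from GENCODE M21 (9 of 9 members) and promoters from RefSeq (GRCm38.p6, 5 of 9 members). Named were the 9 members, Adipoq, the 2 most abundant genes of each role in the wider list, any of that list past the threshold or with separate groups, and the 8 genes most like C1q and like C3. C2, C4a, Cd59a, C5ar1, Itgam, Itgb2, Apoe and Gm12191 were named after their values were seen. The members and lists were chosen with earlier results of these data known. A gene of the wider list that this rule names is not reported here, though the counts include it.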

Additional observations from a re-analysis of the deposited data

How the results depend on the processing

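Each of the 9 complement genes stayed short of an adjusted p of 0.05 under each of the 18 alternatives, whose smallest adjusted p was 0.639. C1qb, C1qc, Cfb and Serping1 kept their sign in all 18, with left-out ranges of -0.588 to -0.007, -0.517 to -0.048, -0.557 to -0.142 and -0.614 to -0.063. The sign of C3 turned with median-of-ratios rescaling (0.017), quantile normalization (0.03) and a total without Rn45s (0.007), and that of C3ar1 turned with quantile normalization (0.019). With a library left out, the log2 fold change ranged from -0.404 to 0.15 for C1qa, -0.308 to 0.334 for C3, -0.505 to 0.205 for C4b, -0.46 to 0.154 for Cfp and -0.383 to 0.26 for C3ar1. The number of members at an unadjusted p below 0.05 was 0 to 1 when a library was left out (1 without WT mouse 3, Cfb), and that of the wider list was 0 to 1 (Cfd without KO mouse 2, Masp1 without KO mouse 3). The scalings also moved the share of lower genes among all genes at that level, from 63.1% to 50.6% with the median of ratios and 45.4% with quantile normalization. The number of all genes at that level was 641 with array weights and 309 to 708 without a library (412 with all 6). After adjustment it was 1 with limma voom and 0 to 16 without a library (2 with all 6), 0 being without WT mouse 2, where 309 genes had an unadjusted p below 0.05 in limma. Adipoq was lower in KO in all 18. Its log2 fold change depends on the pseudocount, since 2 KO libraries are at 0, and was -6.17 with 0.5, -7.94 with 0.1 and -4.46 with 2. It was -7.88 with limma voom (adjusted p = 0.488) and -6.54 to -5.94 without a library (adjusted p = 0.0683 without WT mouse 2). With the replicate number as a block, the wider list had 1 gene at an unadjusted p below 0.05 (Cfd, adjusted p = 0.976 in limma), 0 members reached it, and 591 of all genes did. The smallest unadjusted p of a member was then 0.0591 in limma, for Serping1. The correlations of deviations between WT and KO libraries of equal number were 0.376, -0.306 and -0.222. With deviations centred within groups of 3 libraries, these values cannot settle whether the numbers pair the libraries. The causes were not tested. With 3 libraries a group, 95% intervals of the members allow changes of up to about 2-fold.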

Other observations

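The balance between complement genes was also compared. The ratio of C4b to C3, both in CPM, was 0.517, 0.440 and 0.901 for WT mice 1, 2 and 3, against 0.481, 0.713 and 0.438 for KO mice 1, 2 and 3. WT mouse 3, in which C3 was low and C4b was not, had the highest ratio. The ratio of Cfp to Cfb was 0.660, 0.592 and 0.495 in WT and 0.668, 0.903 and 0.493 in KO. The ratio of Serping1 to the sum of the C1q chains was 0.664 to 0.847 in WT and 0.702 to 0.746 in KO.

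Of the genes of the wider list that were too low to test, Colec11, a soluble lectin of the lectin pathway, had separate groups. It was at 0.484, 1.02 and 1.15 CPM in WT and at 0.455, 0 and 0.294 CPM in KO. All but 2 of these values rest on at most 3 reads, so no fold is given. In reads the groups overlapped, with 2 in WT mouse 1 and 3 in KO mouse 1, so the separation rests on the scaling for depth. Among all tested genes 7.84% had separate groups.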
